A study of Mus musculus with 2 samples.

Results

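The globins and 3 other red cell genes were followed in RNA from the hearts of newborn mice. The 10 genes were chosen by symbol: the adult alpha globins Hba-a1 and Hba-a2, the adult beta globins Hbb-bs and Hbb-bt, the embryonic globins Hba-x, Hbb-bh1 and Hbb-y, and the red cell genes Alas2, Bpgm and Slc4a1. All 10 were found among the 43346 mouse genes of each deposited table, by gene identifier without its version. The series holds 1 group of 2 libraries, each from a single heart of 1 pup of the B6NCrl strain on postnatal day 0, with an input of 13 pg (RNA above 200 nt), the amount given for 1 cell. Replicate 1 is pup 1 and replicate 2 is pup 3. Both carry the same donor identifier, no sex was recorded, and there is no treatment, genetic change or control.

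Hemoglobin is built from alpha-like and beta-like chains, whose genes lie in separate clusters in which the embryonic genes precede the adult ones along the chromosome. In the mouse, the embryonic genes are used in the primitive red cells of the yolk sac. The definitive red cells of the fetal liver and later the bone marrow use the adult genes, which are not limited to those cells. Red cells lose their nucleus as they mature and keep globin mRNA for a time, and RNA of a heart can include that of the blood in it.

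The adult copies of each cluster were all but identical in their coding sequence. Hba-a1 and Hba-a2 each have 426 coding bases without the stop codon and differ at 1 of them, C381T, with the base of Hba-a1 first and positions counted from 1 at the start codon. Hbb-bs and Hbb-bt each have 441 coding bases and also differ at 1, C417T, with the base of Hbb-bs first. The stretches around these bases are shown because these bases are the coding difference by which a read can be given to 1 copy. All lie in the last coding exon, in the mm10 sequence of GENCODE M21 transcripts, 5′ to 3′ on the coding strand. Capitals mark the single difference in each first adult copy and, in every other gene, each base that differs from that copy.
Hba-a1 (chr11:32284319-32284367, plus strand): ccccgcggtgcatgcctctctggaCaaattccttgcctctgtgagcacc
Hba-a2 (chr11:32297136-32297184, plus strand): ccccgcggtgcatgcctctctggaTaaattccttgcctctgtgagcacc
Hba-x (chr11:32277936-32277984, plus strand): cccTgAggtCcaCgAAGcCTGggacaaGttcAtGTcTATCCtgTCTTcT
Hbb-bs (chr7:103826668-103826716, minus strand): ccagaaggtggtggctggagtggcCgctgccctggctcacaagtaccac
Hbb-bt (chr7:103812659-103812707, minus strand): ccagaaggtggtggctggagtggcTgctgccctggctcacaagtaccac
Hbb-bh1 (chr7:103841755-103841803, minus strand): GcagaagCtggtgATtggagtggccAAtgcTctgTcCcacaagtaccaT
Hbb-y (chr7:103851877-103851925, minus strand): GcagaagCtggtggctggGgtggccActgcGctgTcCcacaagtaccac

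Within these 49 bases, Hba-x differs from Hba-a1 at 24 positions, Hbb-bh1 from Hbb-bs at 10 and Hbb-y from Hbb-bs at 7. Over the whole coding sequence, base identity was 61.5% between Hba-a2 and Hba-x, 73.9% between Hbb-bs and Hbb-bh1 and 74.4% between Hbb-bs and Hbb-y. The deposited effective lengths are 99 below the model lengths, so windows of 100 bases were compared. Of the 327 coding windows of Hba-a1, 281 occur in Hba-a2 as well, and of the 342 of Hbb-bs, 317 occur in Hbb-bt. Within each cluster, 0 coding windows of either adult gene occur in an embryonic gene, and 0 genes outside the 7 globins hold any coding window of these globins. At this length, coding sequence thus separates adult from embryonic globins, while most of it is shared within an adult pair. Adult copies were therefore summed.

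The libraries held adult globin RNA and 0 counts of the embryonic globins. The adult alpha genes summed to 3582 TPM in replicate 1, against 3468 TPM in replicate 2, where TPM is transcripts per 1000000 over mouse genes. The embryonic alpha gene Hba-x, which encodes the zeta-like chain of primitive red cells, had 0 counts in both. The adult beta genes summed to 2076 and 2083 TPM in replicates 1 and 2, and their embryonic relatives Hbb-bh1 and Hbb-y, which encode the beta-like chains of primitive red cells, had 0 counts in both. Adult and embryonic levels were thus separate in each library, for each chain.

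The depth behind these zeros was large. Adult alpha genes held 54333 expected counts in replicate 1 and 42732 in replicate 2, and adult beta genes 37730 and 31856, where an expected count is an estimated number of reads. A count of 0 allows up to 3 counts. Embryonic alpha reads can then make up at most 0.00552% of the adult alpha reads in replicate 1 and 0.00702% in replicate 2, and embryonic beta reads at most 0.00795% and 0.00942% of the adult beta reads. With 3 counts per library as the floor, placed on the shortest model of Hba-x, the adult alpha sum was at least 18510-fold higher than Hba-x in replicate 1 and at least 15201-fold higher in replicate 2, per length. The adult beta sum was at least 11507-fold and at least 9799-fold higher than the embryonic beta genes, with 1 floor over both of these and the shorter effective length. No molecular identifiers are given, so these limits cover counting error only and set no bound on the level in the heart. Of the 10 genes, the 3 embryonic globins had 0 counts in both libraries, as had 46.8% of all 21474 protein-coding genes. With 2 libraries of 1 group, an exact sign test cannot go below 0.5, and no test is given.

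In both clusters the embryonic genes, without counts, lie before the adult genes, and other genes without counts lie among them. On chromosome 11, Hba-x (32276400 to 32278116, plus strand, mm10) comes first, Hba-a1 (32283511 to 32284465) starts 7.11 kb after it and Hba-a2 (32296489 to 32297298) 20.1 kb after it. The theta-globin genes Hbq1b and Hbq1a, which follow an adult alpha gene each, had 0 counts in both libraries. On chromosome 7, Hbb-y (103851749 to 103853216, minus strand) is the first in the direction of transcription, Hbb-bh1 (103841637 to 103843164) starts 10.1 kb after it, Hbb-bs (103826534 to 103828096) 25.1 kb after it and Hbb-bt (103812524 to 103813996) 39.2 kb after it. The genes or pseudogenes between them, Hbb-bh0, Hbb-bh2 and Hbb-bh3, had 0 counts in both libraries. Of the 12 genes and pseudogenes listed in these clusters, only the 4 adult genes had any count. Among all protein-coding genes, 46.8% had 0 counts in both libraries.

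**Figure D1:**
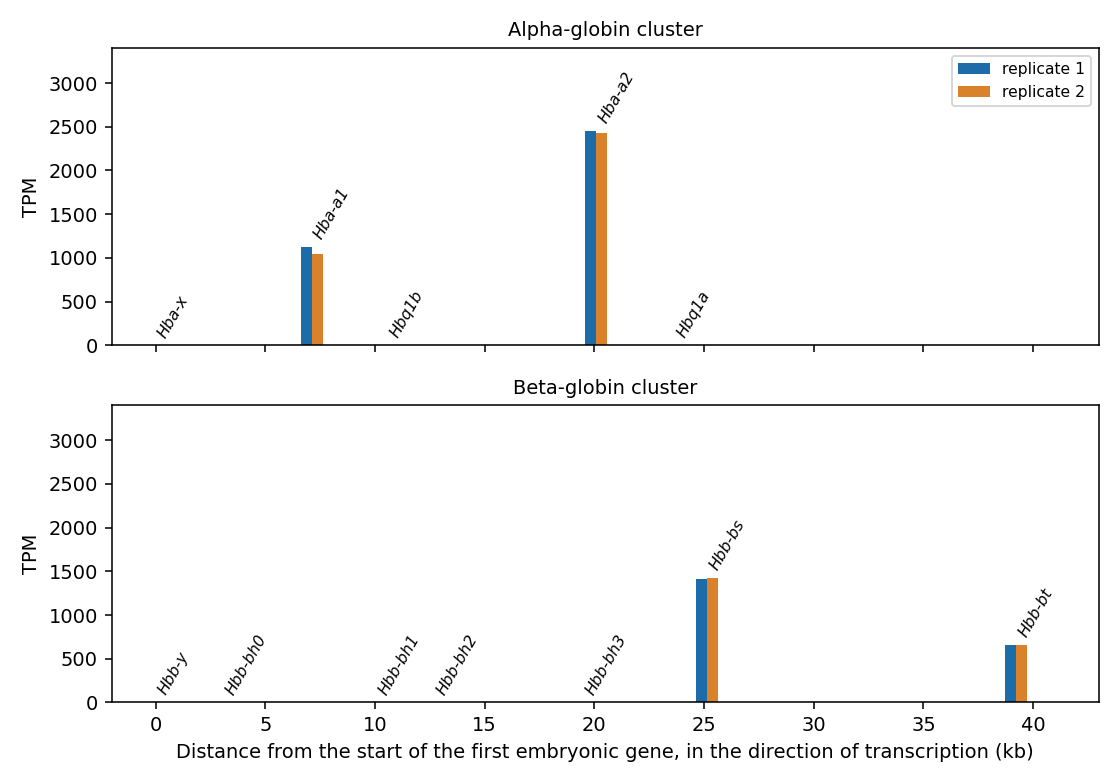
Level of each globin gene (TPM, linear axis from 0) against the distance of its annotated start from that of the first embryonic gene (kb), with bars for replicate 1 and replicate 2. The 4 adult genes carry bars between 658 and 2453 TPM, and the other genes of both clusters are at 0.

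Within the alpha pair, Hba-a2 had 2453 and 2427 TPM in replicates 1 and 2 (2440 ± 18.6, SD, n = 2), and Hba-a1 had 1129 and 1041 TPM (1085 ± 62.3). The assigned ratio of Hba-a2 over Hba-a1 was 2.17 and 2.33. Within the beta pair, Hbb-bs had 1417 and 1425 TPM (1421 ± 5.83) and Hbb-bt 659 and 658 TPM (658 ± 0.352). The assigned ratio of Hbb-bs over Hbb-bt was 2.15 and 2.17. These splits are estimates. Over the whole coding models, 261 of the 600 windows of 100 bases of Hba-a1 occur in no model of Hba-a2, and 116 of the 455 of Hba-a2 in no model of Hba-a1. In the tables, the posterior SD of the count was the same for both members of a pair, 183 counts for Hba-a1 and Hba-a2 in replicate 1 and 140 in replicate 2, and 170 and 189 counts for Hbb-bs and Hbb-bt. The summed count of each pair was a whole number, within 0.05 counts, in both libraries, although its members' counts were not.

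Alpha and beta RNA were not at equal levels. The adult alpha sum was 1.73 times the adult beta sum in replicate 1 and 1.66 times in replicate 2, in TPM. On the log2(TPM + 1) scale the difference was 0.76 ± 0.04 (SD, n = 2). Without division by length, in expected counts, the ratios were 1.44 and 1.34. The direction was the same in both libraries and both units, and its size depends on the lengths of the transcript models, which are described further on.

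The globin share of TPM was 0.566% in replicate 1 against 0.555% in replicate 2, or 0.232% and 0.228% of expected counts. Hba-a2 ranked 37 among protein-coding nuclear genes by mean TPM, Hbb-bs 74, Hba-a1 105 and Hbb-bt 196. The genes nearest to the adult alpha sum over both libraries, by distance in log2(TPM + 1), were Cox4i1 of cytochrome oxidase (3442 and 3919 TPM in replicates 1 and 2), the glycolytic Aldoa (3625 and 3034 TPM) and the malate dehydrogenase gene Mdh1 (3104 and 3118 TPM). Nearest to the adult beta sum were the respiratory chain genes Uqcrb (1989 and 2148 TPM) and Cox6a1 (2006 and 1998 TPM) and the ATP synthase gene Atp5c1 (2174 and 2297 TPM). Globin RNA thus stood at the level of single abundant energy genes of the heart. The tissue label was checked on 10 heart muscle genes, each of which reached 1 TPM in both libraries. They summed to 6.15% and 8.54% of TPM, which was 10.9 and 15.4 times the adult globins. The cardiac actin gene Actc1 had 13940 and 23510 TPM, the ventricular light chain gene Myl2 5082 and 15945 TPM, and the atrial light chain gene Myl7 4639 and 2239 TPM. Of the 10, Myl2 and Myl7 were over 2-fold apart, in opposite directions. In bulk RNA such as this, fewer red cells and less RNA per red cell cannot be told apart.

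**Figure D2:**
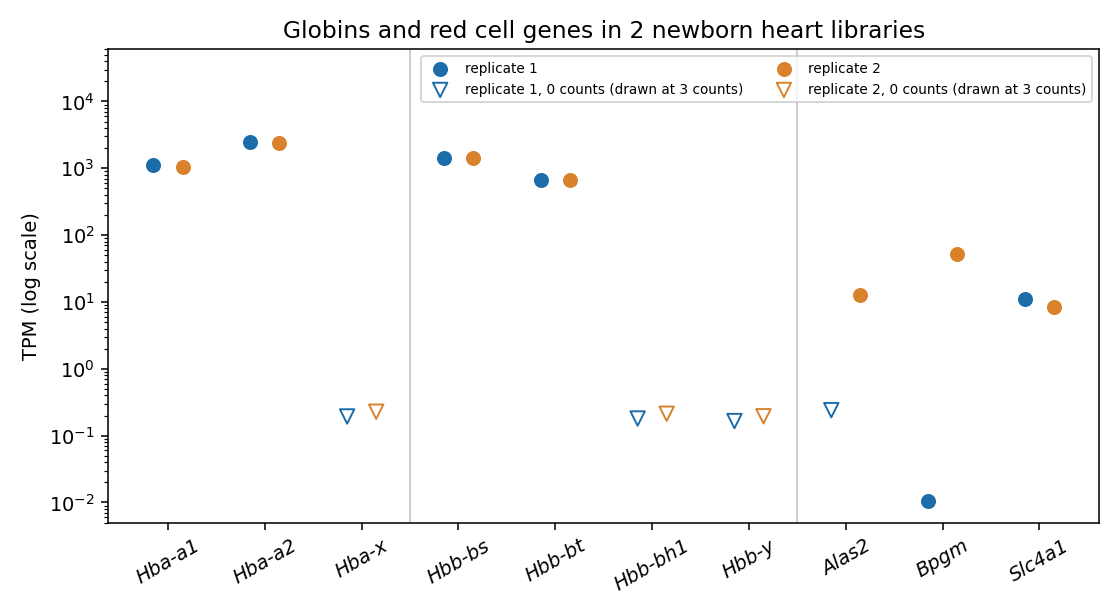
Level of each of the 10 genes (TPM, log axis) in replicate 1 and replicate 2. Filled points are genes with at least 1 count, and open triangles mark genes with 0 counts, drawn at the TPM of 3 counts on the gene's shortest model, so that the 1 count of Bpgm in replicate 1 lies below them. The 4 adult globins lie between 658 and 2453 TPM, the 3 embryonic globins have 0 counts, and Alas2 and Bpgm are far apart between the libraries.

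The adult globins were close between the hearts. The log2(TPM + 1) of replicate 1 over replicate 2 was 0.05 for the alpha sum and −0.01 for the beta sum. The 278 genes with a mean between 500 and 5000 TPM include the adult globins themselves. Of the 278, 22 were as close or closer than the alpha sum and 6 were as close or closer than the beta sum. The median size of their log2 difference was 0.43. Scaling moves this comparison. Replicate 2 had 77.7 mouse counts per spike-in count, and replicate 1 had 40.6. Set against the spike-in RNA added to the libraries, the adult globins stood at 0.0943 counts per spike-in count in replicate 1 and 0.177 in replicate 2, a log2 ratio of −0.91. Spike-in scaling shifts the log2 ratio of counts by the same amount for every mouse gene, so this shift is not particular to globins. Why the spike-in share differed between the libraries was not tested. The other scalings that were tried put the log2 ratio of the summed adult globins between 0.03 and 0.13.

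The 3 red cell genes other than globins were much lower, and 2 of them were missing or all but missing from replicate 1. Bpgm (chromosome 6, 34476207 to 34505613, plus strand), which makes the bisphosphoglycerate that lowers the oxygen affinity of hemoglobin, reached 52.5 TPM from 2302 counts in replicate 2, against 0.0104 TPM from 1 count in replicate 1. Its share of reads was 2788-fold higher in replicate 2, with an exact 95% counting interval from 500 to 110183. That interval covers counting error only and not the spread between libraries or hearts. Alas2 (chromosome X, 150547375 to 150570638, plus strand), the erythroid form of the first enzyme of heme synthesis, reached 12.8 TPM from 639 counts in replicate 2, and replicate 1 held 0 counts of it. Its share of reads was at least 258-fold higher in replicate 2, taking 3 counts for the 0 of replicate 1. Both genes were thus read all but wholly in replicate 2, while the adult globins were at like levels in both libraries.

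Gaps of this kind were found for many genes at these levels. Of 2852 genes at 10 to 30 TPM in replicate 2, the range of Alas2, 23.8% had under 3 counts in replicate 1. Of 2139 genes at 30 to 100 TPM in replicate 2, the range of Bpgm, 7.81% did. Of the 10 genes, 7 had a mean of 5 TPM or more, and 2 of these, Bpgm and Alas2, were over 2-fold apart between the libraries, against 54.6% of all 8266 genes with such a mean. Both were higher in replicate 2, as were 27.7% of all such genes.

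Slc4a1 (chromosome 11, 102348824 to 102366203, minus strand), which encodes the anion exchanger of the red cell membrane, was read in both libraries, at 10.95 and 8.29 TPM in replicates 1 and 2 (9.62 ± 1.88, SD, n = 2). Its counts were further apart than its TPM. It had 1398 counts in replicate 1 and 501 in replicate 2. Its share of reads was 2.30-fold higher in replicate 1, with an exact 95% counting interval from 2.08 to 2.56. This interval covers counting error only and not the spread between libraries or hearts. In TPM, Slc4a1 was 0.194% and 0.149% of the adult globin sum. A gene was called detected at 1 TPM or more. Of the 10 genes, 5 were detected in both libraries, the 4 adult globins and Slc4a1, against 28.4% of protein-coding genes and 15.3% of all mouse genes.

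**Figure D3:**
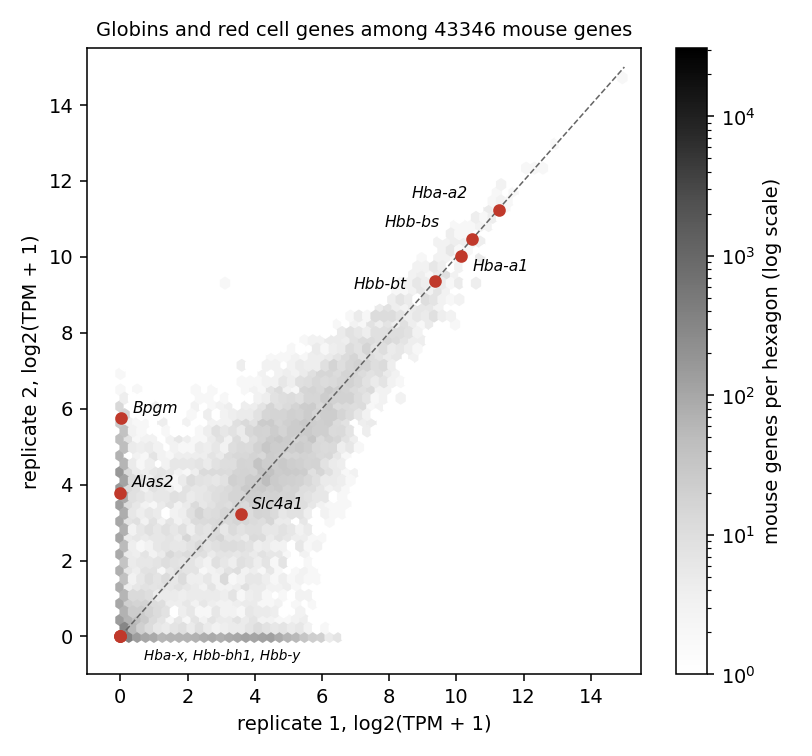
Level of the 10 genes (red points) and of all 43346 mouse genes (grey hexagons, darker for more genes) in replicate 2 against replicate 1, both as log2(TPM + 1), with the line of equality dashed. The 4 adult globins lie on the line at the upper end, Slc4a1 lies near it at a low level, and Bpgm and Alas2 lie on the edge where replicate 1 is at or near 0.

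The transcript tables show on which annotated models these reads were placed. For Hba-a1, the protein-coding model held 52.0% of the gene's TPM in replicate 1 and 20.8% in replicate 2, and a retained-intron model held 48.0% and 79.2%. In counts, the protein-coding model was assigned 11366 and 3552, and the retained-intron model 6915 and 8924. The leading model of Hba-a1 was therefore not the same in the libraries. For Hba-a2, the protein-coding model held 100% in both, and its own retained-intron model held 0 counts.

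Some of these models have little sequence of their own. The retained-intron models of Hba-a1 and Hba-a2 are both 494 nt long, of which 113 lie in the first intron and the other 381 in exons of the coding model. Of the 395 windows of 100 bases in the retained-intron model of Hba-a1, 0 are absent from the other alpha models. Of the 600 windows of the coding model of Hba-a1, 165 occur in no other alpha model, and of the 455 of the coding model of Hba-a2, 20 do. The coding models also differ in length, at 699 nt for Hba-a1 and 554 nt for Hba-a2, which enters the TPM of each.

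For Hbb-bs, a retained-intron model held 47.0% of TPM in replicate 1 and 54.4% in replicate 2 (50.7 ± 5.25, SD, n = 2), the longest protein-coding model held 45.6% and 40.9%, and a shorter protein-coding model held 7.45% and 4.72%. By counts the order of the first 2 was the other way, with 14157 and 10838 counts on the longest coding model against 9677 and 9561 on the retained-intron model. Hbb-bt has 1 listed model. The first 2 models of Hbb-bs are longer in the deposited tables than in the annotation used here for names, at 778 against 628 nt for the coding model and 549 against 344 nt for the retained-intron model, so their windows were not compared.

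For the other red cell genes, single models carried most counts. The longest protein-coding model of Bpgm held 67.8% of its TPM in replicate 2 and a shorter one 32.1%, with 2071 and 230 counts. The longest protein-coding model of Alas2 held 92.5% of its TPM in replicate 2. For Slc4a1, the protein-coding model took 99.2% and 93.8% of the counts in replicates 1 and 2, but 88.2% and 46.5% of the TPM. In replicate 2, 21.8 counts on a non-coding model of 357 nt and 9.53 counts on another of 356 nt made up 37.2% and 16.3% of TPM. The nearness of the Slc4a1 TPM between the libraries thus includes a small number of reads on short models.

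**Figure D4:**
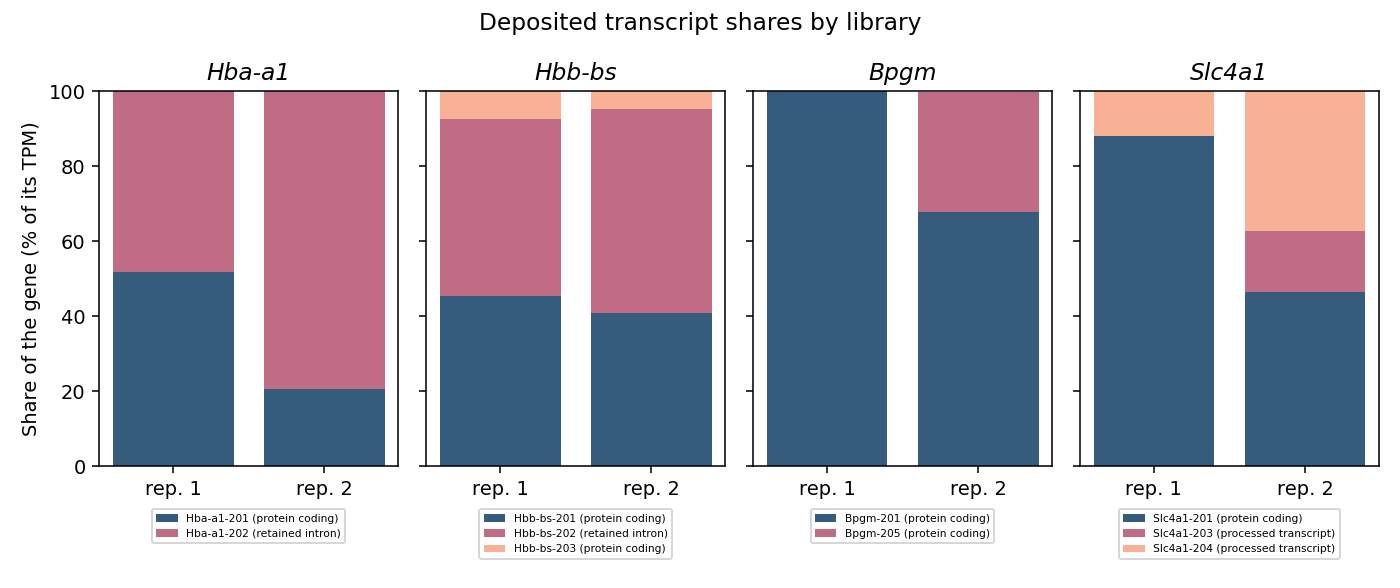
Share of each gene's TPM (percent, linear axis from 0) by deposited transcript model for Hba-a1, Hbb-bs, Bpgm and Slc4a1 in replicate 1 and replicate 2. The retained-intron model of Hba-a1 takes 48.0% in replicate 1 and 79.2% in replicate 2, and the bar of Bpgm in replicate 1 rests on 1 count.

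Other red cell genes were read from lists of the pathway, which hold 67 genes beside the 10. Of the 67, 27 were detected in both libraries and 22 had 0 counts in both, against 28.4% and 46.8% of protein-coding genes. Many of these genes also serve other cells. Among markers of nucleated red cell precursors, the transcription factor genes Gata1, Klf1 and Tal1, the erythropoietin receptor gene Epor, the Rh-associated glycoprotein gene Rhag and the nuclear factor gene Hemgn each had 0 counts in both libraries. Among the red cell membrane genes and regulators, the blood group gene Kel had 28.6 TPM from 981 counts in replicate 2 but 0 counts in replicate 1. Zfpm1, which encodes a partner of GATA factors, had 2.74 TPM from 247 counts in replicate 2 but 0 counts in replicate 1. A count of 0 allows up to 0.0756 counts per 1000000 in replicate 1 and 0.0916 in replicate 2.

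Genes of heme synthesis other than Alas2 were read in part. Of 14, 7 were detected in both libraries, 2 in replicate 1 alone and 4 in replicate 2 alone, with a median level of 24.8 TPM. Among all protein-coding genes, 28.4% were detected in both libraries. Alas1, the form of the first enzyme used outside red cells, led with 318 and 211 TPM in replicates 1 and 2. Tmem14c, a mitochondrial membrane gene needed for heme synthesis, had 156 and 214 TPM, and ferrochelatase, Fech, which inserts the iron, had 66.9 and 78.2 TPM. Alad, the second enzyme of the pathway, had 62.6 TPM in replicate 1 but 0 counts in replicate 2, and Ppox, a later enzyme, had 47.1 and 3.63 TPM. In this list, genes low in 1 library were found on either side.

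Of 18 genes of the red cell membrane and its skeleton, 8 were detected in both libraries and 7 had 0 counts in both. Among all protein-coding genes these shares were 28.4% and 46.8%. Tmod1, which caps actin filaments in red cells and in heart muscle, had 219 and 226 TPM in replicates 1 and 2. The glycophorin gene Gypc had 79.2 and 17.2 TPM, and the stomatin gene Stom had 59.7 and 25.5 TPM. Of 13 erythroid regulators, 3 were detected in both libraries and 7 had 0 counts in both, against the same 28.4% and 46.8%. Lmo2, also used by endothelium, had 37.4 and 1.07 TPM, the repressor gene Zbtb7a had 9.97 and 4.10 TPM, and Sox6, which also acts in muscle, had 0.0417 and 12.9 TPM.

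Of 22 genes of late red cells, 9 were detected in both libraries and 7 had 0 counts in both. Among all protein-coding genes these shares were 28.4% and 46.8%. The peroxiredoxin gene Prdx2 had 692 and 722 TPM in replicates 1 and 2, and Bnip3l, which acts in the removal of mitochondria, had 234 and 354 TPM. Catalase, Cat, had 173 and 50.5 TPM, Blvrb, a biliverdin reductase of red cells, had 19.9 and 88.7 TPM, and the ubiquitin ligase gene Mkrn1 had 55.3 and 24.2 TPM. The median level of this list was 5.06 TPM, that of the membrane list 4.14 TPM and that of the erythroid regulators 0 TPM. Over all protein-coding genes it was 0.0156 TPM. Over the 4 lists, 34 genes had a mean of 5 TPM or more, and 16 of them were over 2-fold apart between the libraries, against 54.6% of all such genes.

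**Figure D5:**
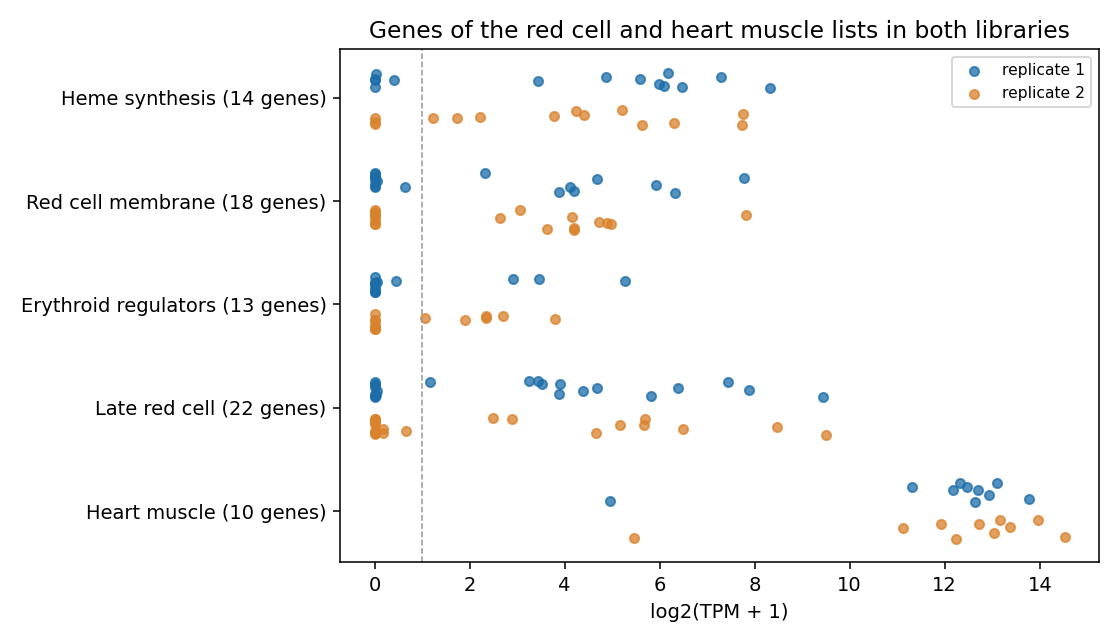
Level of each gene (points, log2(TPM + 1)) in the 4 red cell lists and the heart muscle list, in replicate 1 and replicate 2, with the dashed line at 1 TPM. Most genes of the red cell lists lie at 0 or between 1 and 8 on this scale, and 9 of the 10 heart muscle genes lie above 11.

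Genes beside the alpha-globin cluster were lower than the adult alpha globins. Nprl3, whose introns hold enhancers of the alpha globins, had 22.2 and 35.4 TPM in replicates 1 and 2, and the DNA glycosylase gene Mpg had 5.27 and 9.80 TPM. Snrnp25, a splicing gene, had 123 TPM in replicate 2, against 0.0417 TPM from 1 count in replicate 1. Rhbdf1 had 9.59 TPM in replicate 2 but 0 counts in replicate 1, and the interleukin receptor gene Il9r had 0 counts in both. None of these neighbours came near the level of the adult alpha globins. Among globins outside the clusters, myoglobin, Mb, the oxygen store of heart muscle, had 1218 and 4083 TPM, the cytoglobin gene Cygb had 16.6 TPM and 0 counts, and the neuroglobin gene Ngb had 0 counts in both. Mb was thus over 2-fold apart between the libraries, and the adult globins of red cells were not.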

How the data were processed

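The 10 genes and the gene lists were chosen with earlier results of these data known. Per the labels, a mirVana kit served for extraction and the library protocol named is Smart-seq. Per the file headers, the deposited tables of genes and transcripts, kept separate for each library, hold expected counts, their posterior means and a score for the posterior SD of each count. They also hold the authors' TPM, the bounds of its credible interval (a deposited signal, the bounds themselves not being used) and, in percent, how a gene's TPM divides among its transcripts. Deposited text notes name mm10 and GENCODE M4. The aligner and quantifier were not given in the sources used here. No strand rule is stated, so antisense reads are not separated.

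TPM was rescaled to 1000000 over mouse genes; 96 spike-ins and 26248 entries named only by a number stayed out. Names and positions came from GENCODE M21 on mm10 (42462 of 43346 genes matched). Of 146 listed symbols 143 matched, all but Hbb-b1, Hbb-b2 and Ahsp. Depth was 39671930 expected counts on mouse genes in replicate 1 and 32751851 in replicate 2. The libraries were no duplicates, with a chi-square of 794 per gene over the 11666 genes with 10 counts or more. With 1 group, no test between groups was made. Levels are the mean ± SD of 2 libraries, and intervals are exact (Clopper-Pearson) at 95%. Besides the 10 genes, the text names the 3 highest of each list, those over 2-fold apart with a mean of 20 TPM or more, heart muscle genes, and the 3 genes nearest to each adult sum. The globin genes and pseudogenes with 0 counts, the precursor markers, Kel, Zfpm1, Rhbdf1 and Il9r lie outside that rule and were named after their values were seen. Some of the listed precursor markers are not reported here. Alternatives covered pseudocount, unit, thresholds, filters, scaling by TMM (edgeR 4.0.16) or by the size factors of DESeq2 1.42.0 (both on expected counts rounded to whole numbers), spike-in scaling and leaving out a replicate. The 2-fold rule was checked on simulated counts with counting error alone, so the check does not cover the wider spread between these libraries. Calculations used Python 3.11.15, pandas 2.3.3, numpy 2.4.6, scipy 1.17.1 and R 4.3.3.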

Additional observations from a re-analysis of the deposited data

How the results depend on the processing

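No paired analysis was possible because the series has 1 group. The log2 ratio of adult over embryonic globins depends on the pseudocount, since the embryonic genes are at 0: for alpha it was 11.78, against 10.39 in counts per 1000000 mouse counts (CPM), 11.60 in posterior means and 15.11 with a pseudocount of 0.1, and for beta 11.02, against 9.91, 10.83 and 14.34. Without either replicate it was 11.76 to 11.81 for alpha and 11.02 to 11.03 for beta. Adult alpha over adult beta was 0.76 on the log2 scale and 0.47 in expected counts. The globin share was 0.560% of TPM, 0.543% over all deposited entries and 0.230% of expected counts. The log2 ratio of replicate 1 over replicate 2 for the summed adult globins was 0.03 in TPM and at most 0.13 under the other scalings. It turned to −0.91 when scaled to spike-ins, which shifts the counts of all mouse genes alike. Why the spike-in share differed was not tested. In CPM, with or without TMM or DESeq2 factors, 3 of the 10 genes were over 2-fold apart in place of 2, the third being Slc4a1. The share over all genes is given only in TPM, at 54.6% of those with a mean of 5 TPM or more. Of the 10 genes, 5 were detected in both libraries, and 5 to 7 in the library that remained when a replicate was left out. Of the red cell lists it was 27, and 33 to 36. Of 5 genes with several models and reads in both libraries, 4 had the same leading model in both libraries, by TPM and by counts, and Hba-a1 did not. Bpgm is among the 4 with only 1 count in replicate 1, and for Hbb-bs the leading model differed between TPM and counts. Depth on globins was high, and at 30 to 100 TPM in replicate 2, 7.81% of genes had under 3 counts in replicate 1.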

Other observations

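Markers of other blood cells are given beside the shares of all protein-coding genes, of which 28.4% reached 1 TPM in both libraries and 46.8% had 0 counts in both. Of 10 platelet and megakaryocyte genes, 1 reached 1 TPM in both libraries, Pf4, a platelet chemokine gene, with 84.6 and 11.8 TPM in replicates 1 and 2. Clec1b, a platelet receptor gene, had 20.9 TPM in replicate 1 but 0 counts in replicate 2, and Ppbp, another platelet chemokine gene, had 17.6 TPM and 0 counts. Of the 10, 5 had 0 counts in both libraries. The list summed to 140 and 22.6 TPM, while the adult globins summed to 5657 and 5551 TPM.

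Of 9 neutrophil genes, 5 had 0 counts in both libraries, against 46.8% of protein-coding genes. S100a8, a calcium-binding protein gene of these cells, had 57.3 and 49.6 TPM in replicates 1 and 2. Its partner S100a9 had 75.3 TPM in replicate 2 but 0 counts in replicate 1. Retnlg, a neutrophil resistin-like gene, was the reverse, with 15.4 TPM in replicate 1 but 0 counts in replicate 2. Of 10 macrophage genes, 3 reached 1 TPM in both libraries, against 28.4% of protein-coding genes: the lysozyme gene Lyz2 (81.3 and 43.3 TPM) and the complement genes C1qb (72.6 and 22.6 TPM) and C1qa (5.43 and 40.5 TPM). All 8 lymphocyte genes had 0 counts in both libraries.

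Of 7 genes of heme breakdown and scavenging, 3 reached 1 TPM in both libraries, against 28.4% of protein-coding genes. The constitutive heme oxygenase Hmox2 had 86.8 and 206 TPM, the biliverdin reductase Blvra had 42.8 and 52.1 TPM, and the haptoglobin gene Hp, whose product binds free hemoglobin, had 27.3 and 17.7 TPM.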
